A study of Mus musculus with 29 samples.

Results

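Acta2, Tagln, Cnn1, Myl9, Ankrd1, Ccn1 (also written Cyr61), Ccn2 (also written Ctgf), Amot and Amotl2 are 9 genes of the contractile cytoskeleton and of the response to the coactivator YAP. They were picked by name, out of 20956 gene symbols that the array probes could be matched to, and each is read by 1 probe. Their messenger RNA was measured on 29 single-colour Agilent arrays of cultured male mouse cell lines, lysed on the plate. In the first array set, ESC are undifferentiated stem cells that carry 2 reporters (line HRHnG) and grew with LIF and 2i, a pair of kinase inhibitors (3 arrays). Diff are HRHnG cells exposed to Activin, CHIRON and LIF for 7 to 8 days, towards primitive endoderm (3 arrays), and Mid and Late are the nEnd cultures grown from them, at passage 7 to 10 and passage 14 to 15 (3 arrays each, every replicate from its own round of differentiation). XEN are extraembryonic endoderm cells in standard XEN medium (3 arrays), labelled as the line Xen, which does not carry the HRHnG reporters by its label. In the second set, 2iL (3 arrays) come from 3 stem cell lines, HVMC, E14 and E14-NanogGFP, adapted to 2i and LIF over at least 3 passages, and NACL (4 arrays, with HVMC used 2 times) are the same lines after a minimum of 3 passages in N2B27 with Activin, CHIRON and LIF. EpiSC (3 arrays) are epiblast stem cells derived from stem cells and held as a stable culture, and ADE (4 arrays) are such cells driven towards anterior definitive endoderm for 4 days. Their line is labelled HRHNG, taken here as HRHnG. What separates the replicates is stated for nEnd cultures, by round of differentiation, and for 2iL and NACL, by cell line. It is not stated for the HVMC pair of NACL or for the other groups. Every p-value measures just the spread between these samples, which in 2iL and NACL includes differences between lines.

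Acta2 (smooth muscle actin), Tagln (transgelin, an actin-binding protein also called SM22), Cnn1 (calponin, which binds actin and tropomyosin) and Myl9 (a regulatory light chain of non-muscle and smooth muscle myosin) build and tension actin stress fibres. They are textbook targets of SRF, a transcription factor whose partners of the MRTF family enter the nucleus when monomeric actin is used up. YAP and its relative TAZ (encoded by Wwtr1) are held in the cytoplasm by the Hippo kinases and, once nuclear, act through the TEAD factors; Ankrd1, an ankyrin-repeat protein, and the secreted matrix-associated proteins Ccn1 and Ccn2 are their most used target genes. Amot and Amotl2 encode angiomotins, junctional scaffolds that bind actin and YAP and can keep YAP out of the nucleus, and Amotl2 is itself a YAP target. In the early mouse embryo this pathway is known for separating trophectoderm from inner cell mass.

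The sequence just before the gene start is where SRF and TEAD can act, so those of the members that hold a match are shown. RefSeq promoter windows (build GRCm38.p6) were at hand for 7 of the 9 members, all but Tagln and Ccn2. The 250 bases before the gene start were searched on both strands for the TEAD motif, spelled GGAATG or CATTCC. They were also searched for the CArG box, the SRF motif, spelled CCWWWWWWGG with W for A or T. Near matches, such as ccctatatgg and ccttgtttgg in Acta2, were not counted, so a window without a match can still hold such a site. A TEAD motif stood in 4 of these 7 windows, against 12.6% of 32851 windows of the same length, and a CArG box in 1 of 7, against 1.47%. A match describes the letters only. Capitals mark the TEAD motif in Ankrd1 (at positions -210 and -123 from the start), Ccn1 (-103), Amotl2 (-65) and Acta2 (-146), and the CArG box in Myl9 (-161), and all sequences run 5′ to 3′ on the gene's strand.
Ankrd1, chr19:36119845-36120094 (minus strand): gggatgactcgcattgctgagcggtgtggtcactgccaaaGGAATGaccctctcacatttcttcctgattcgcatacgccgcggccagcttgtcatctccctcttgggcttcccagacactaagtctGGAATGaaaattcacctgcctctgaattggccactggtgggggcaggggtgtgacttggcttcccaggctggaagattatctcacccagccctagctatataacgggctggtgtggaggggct
Ccn1, chr3:145649986-145650235 (minus strand): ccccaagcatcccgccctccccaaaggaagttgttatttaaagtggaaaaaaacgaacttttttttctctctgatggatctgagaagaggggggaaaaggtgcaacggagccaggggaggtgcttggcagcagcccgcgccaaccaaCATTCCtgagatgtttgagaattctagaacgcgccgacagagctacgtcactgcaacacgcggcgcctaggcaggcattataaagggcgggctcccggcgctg
Amotl2, chr9:102717554-102717803 (plus strand): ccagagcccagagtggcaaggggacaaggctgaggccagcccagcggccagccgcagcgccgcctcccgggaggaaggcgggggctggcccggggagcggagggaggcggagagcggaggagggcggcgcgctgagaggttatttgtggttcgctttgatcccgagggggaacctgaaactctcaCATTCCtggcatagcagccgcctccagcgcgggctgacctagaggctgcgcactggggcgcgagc
Acta2, chr19:34255374-34255623 (minus strand): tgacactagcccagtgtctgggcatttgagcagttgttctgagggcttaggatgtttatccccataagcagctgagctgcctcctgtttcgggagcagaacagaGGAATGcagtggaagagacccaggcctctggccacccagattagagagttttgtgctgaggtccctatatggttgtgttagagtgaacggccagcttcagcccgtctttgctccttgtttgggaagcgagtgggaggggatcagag
Myl9, chr2:156775214-156775463 (plus strand): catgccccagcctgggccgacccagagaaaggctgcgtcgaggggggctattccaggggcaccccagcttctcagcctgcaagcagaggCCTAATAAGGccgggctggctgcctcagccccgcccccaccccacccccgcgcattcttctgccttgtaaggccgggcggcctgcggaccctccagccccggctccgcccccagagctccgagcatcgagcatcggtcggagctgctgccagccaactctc
Neither motif, as spelled here, stood in the windows of Cnn1 and Amot. Of the members with a TEAD match, Ankrd1, Ccn1 and Amotl2 are counted among YAP targets and Acta2 among contractile genes.

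Levels are log2 signals relative to the 75th percentile of the array, which was 152 to 367 intensity units, and 49.2% to 79.7% of probes per array were well above background, the scanner software's own mark for a measured spot. No spot was saturated (0 on each array), and the number of arrays limits the precision. Array sets differ in slides, scan days and software version, so the groups of the first and second set share no technical batch. In the first set, replicate 3 of ESC, Diff, Mid and XEN was read on a second scan day, unlike any Late array. Of defining markers, the 6 of primitive and extraembryonic endoderm were all well above background on every Diff, Mid, Late, XEN and ADE array and 5 of them on every EpiSC array. Sox17, Sox7, Dab2 and Pdgfra were so on no ESC array. Their summed level, as a multiple of the 75th percentile signal, was at least 126 in Diff, Mid, Late and XEN, at least 51.4 in ADE and at most 2.12 in EpiSC. The 6 markers of naive stem cells were all well above background on every ESC and Diff array too, at sums of 335 to 339 and 64.6 to 126. A probe reads a culture as a whole, so fewer cells of a type and less RNA per cell cannot be told apart. Levels of different probes are not comparable, and all statements on height below are within 1 gene.

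**Figure D1:**
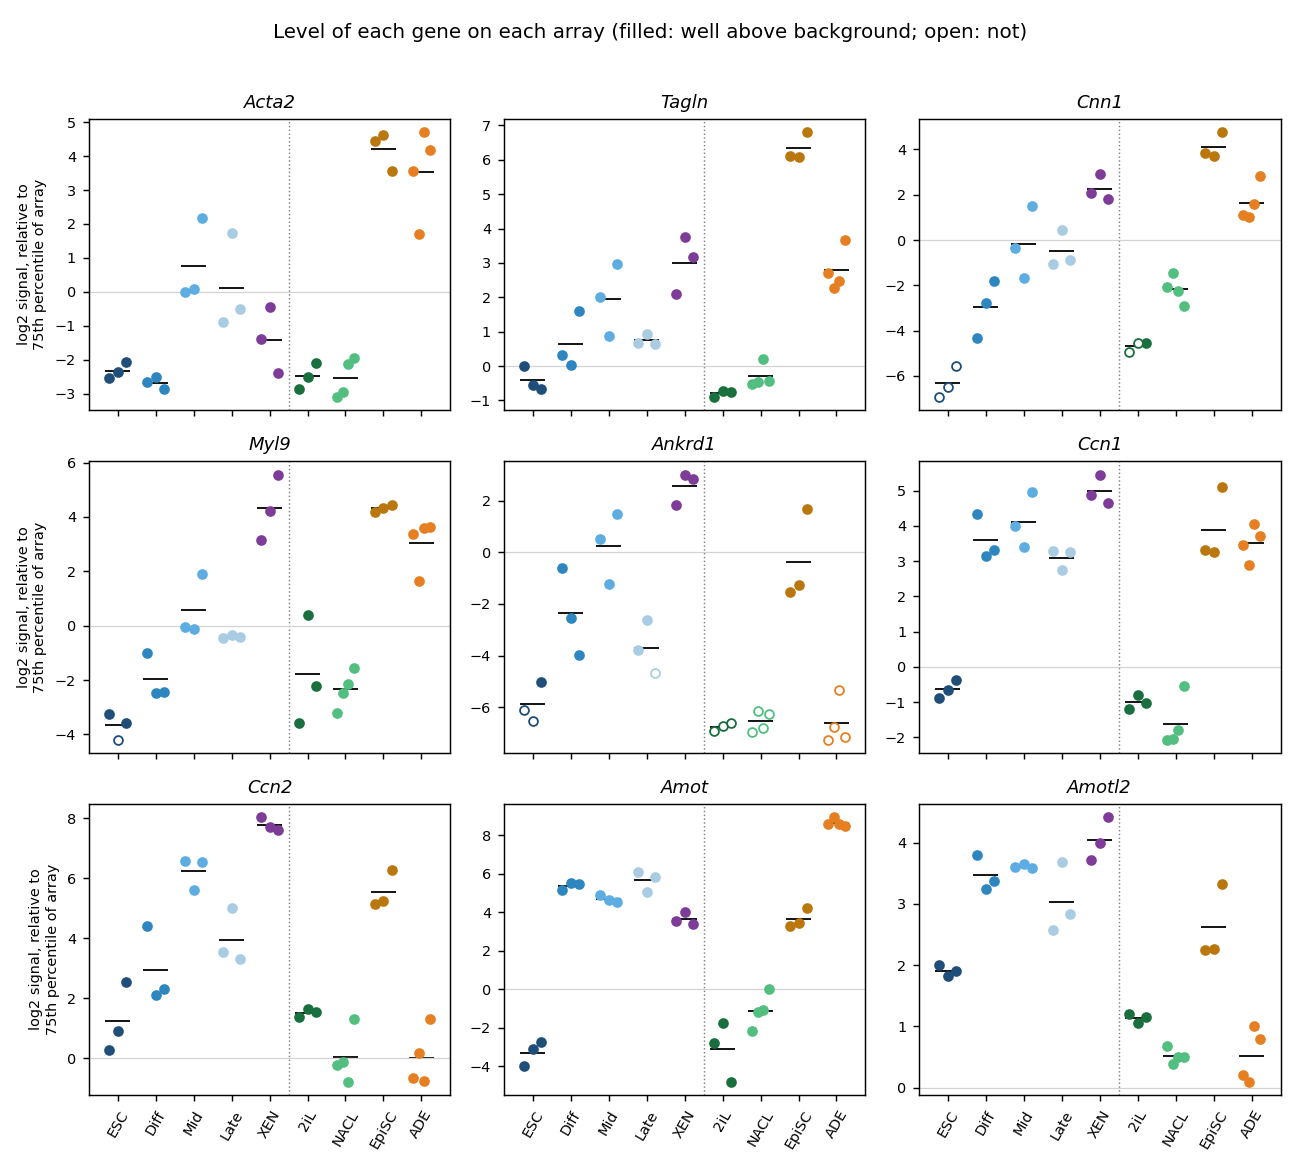
Level of each of the 9 genes (vertical axis, log2 signal relative to the 75th percentile of the array) on each array, by group; filled points were well above background, open points were not, the bar is the group mean, and the dotted line separates the array sets. Acta2, Tagln and Cnn1 are highest in EpiSC, Ankrd1, Ccn1, Ccn2 and Amotl2 in XEN, and Amot in ADE.

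The group means of Amot lay 11.96 apart on the log2 scale from ESC to ADE, those of Cnn1 10.44 from ESC to EpiSC, and those of Ankrd1 9.30 from 2iL to XEN. For Amotl2 the span was 3.52. Pearson r of the group means ran from 0.75 (Acta2 with Myl9) to 0.95 (Cnn1 with Myl9) among the 4 contractile genes and from 0.73 (Ccn1 with Ccn2) to 0.97 (Ankrd1 with Ccn2) among the 3 YAP targets. Between the contractile genes and the YAP targets it ran from 0.20 (Acta2 with Ccn2) to 0.76 (Myl9 with Ccn1), so the ranges overlap. Amotl2 gave 0.89 with both Ankrd1 and Ccn2. These are descriptions over 9 group means of the same arrays, scaled by the same percentile.

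The step from ESC to Diff sets naive cells in 2i and LIF against cells after 7 to 8 days in Activin, CHIRON and LIF. LIF was on both sides, and so was CHIRON if the 2i had its usual make-up, which includes CHIRON. The step also left the 2i medium, and what was added and what was withdrawn cannot be told apart. All 3 YAP targets and both angiomotins rose, and of the contractile genes only Cnn1 passed the test. Amot gained most, 412-fold, and Ccn1 rose 18.9-fold. In all, 6 of 9 members were called higher and 0 lower by limma (Benjamini-Hochberg adjusted p under 0.05), where 43.3% of the 16333 genes tested were called, 22.5% higher and 20.8% lower. The median difference of the members was 1.71, against -0.09 over all genes tested.

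Amot read -4.00, -3.13 and -2.77 on the ESC arrays and 5.16, 5.54 and 5.45 on the Diff arrays. The groups lay far apart, and the difference was 8.69 ± 0.54 (SE, n = 3 and 3; limma adjusted p = 1.8e-11). Ccn1 read -0.88, -0.66 and -0.36 in ESC and 4.34, 3.15 and 3.32 in Diff, without overlap, and rose by 4.24 ± 0.47 (adjusted p = 1.7e-07). Amotl2 was tight in ESC, at 2.00, 1.82 and 1.91, and reached 3.80, 3.25 and 3.38 in Diff, a rise of 1.57 ± 0.29 (adjusted p = 0.0001).

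Ankrd1 and Cnn1 came up from the edge of detection. Ankrd1 read -6.10, -6.54 and -5.01 in ESC, with 1 of 3 arrays well above background, and -0.60, -2.55 and -3.96 in Diff, a rise of 3.52 ± 0.83 (adjusted p = 0.0013). Cnn1 was well above background on none of the ESC arrays and read -4.31, -2.79 and -1.81 in Diff, which makes it at least 4.02-fold higher (adjusted p = 0.00029); this bound sets the mean of the Diff arrays against the lowest signal well above background on each ESC array. With normexp background correction neither was called (a difference of 0.74 for Ankrd1, adjusted p = 0.27, and of 0.63 for Cnn1, adjusted p = 0.30), nor in the authors' series matrix (1.31, adjusted p = 0.063, and 1.03, adjusted p = 0.13).

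Ccn2 read 0.28, 0.92 and 2.56 in ESC and 4.41, 2.11 and 2.31 in Diff. The groups overlap, since ESC 3, of the second scan day, lay above Diff 2 and Diff 3, and the rise of 1.69 ± 0.66 (adjusted p = 0.041) was the weakest call of this step. It was lost without ESC 1 (1.2, adjusted p = 0.20), without ESC 2 (1.52, adjusted p = 0.12) or without Diff 1 (0.95, adjusted p = 0.28), with quantile normalization (1.62, adjusted p = 0.057), with no filter on dim probes (adjusted p = 0.055) and with the 6 arrays fitted alone (adjusted p = 0.13). Tagln (1.06 ± 0.47, adjusted p = 0.071), Myl9 (1.71 ± 0.77, adjusted p = 0.078) and Acta2 (-0.36 ± 0.70, adjusted p = 0.70) were not called. Tagln passed the threshold without Diff 2 (1.37, adjusted p = 0.038) and with median centring (1.45, adjusted p = 0.027), and Myl9 with median centring (2.10, adjusted p = 0.026), with quantile normalization (2.09, adjusted p = 0.029) and in the arrays fitted alone (adjusted p = 0.026).

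In the expansion from Diff to Mid all 4 contractile genes rose, together with Ankrd1 and Ccn2, while Ccn1 and both angiomotins, which had risen in the step before, were not called. That gave 6 of 9 members higher and 0 lower, where 28.9% of genes tested were called, 12.9% higher and 16% lower, and a median difference of 2.54 against -0.03 over all genes tested. This step shares the Diff arrays with the one before, and the steps were not tested against each other. The summed level of naive stem cell markers was lower in Mid, at 30.8 to 45.9 against 64.6 to 126 in Diff. Pou5f1 lay at 2.28 against 4.46 (log2), Zfp42 at 1.68 against 4.45 and Esrrb at -0.37 against 3.63. Nanog was well above background on 1 of 3 Mid arrays. Klf4 (4.46 against 4.41) and Tfcp2l1 (2.30 against 2.02) were not lower. The part of undifferentiated cells in these differences was not tested.

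Acta2 read -2.65, -2.51 and -2.87 in Diff and -0.01, 0.09 and 2.19 in Mid. Every Mid array lay above every Diff array, by 3.44 ± 0.70 in the means (SE, n = 3 and 3; limma adjusted p = 0.0007), and Mid 3, of the second scan day, stood highest. Ccn2 rose by 3.30 ± 0.66 (adjusted p = 0.00059) to 6.56, 5.61 and 6.55 in Mid, all above the Diff arrays. Cnn1 reached -0.33, -1.69 and 1.52, a rise of 2.80 ± 0.68 (adjusted p = 0.0032) that was not called in the 6 arrays fitted alone (adjusted p = 0.090).

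Tagln, Myl9 and Ankrd1 rose with less room. Tagln read 0.32, 0.02 and 1.59 in Diff and 2.01, 0.89 and 2.96 in Mid, which overlap, and rose by 1.31 ± 0.47 (adjusted p = 0.037). Myl9 read -0.99, -2.46 and -2.44 in Diff and -0.06, -0.12 and 1.91 in Mid, and rose by 2.54 ± 0.77 (adjusted p = 0.016). Ankrd1 read 0.50, -1.24 and 1.47 in Mid, overlapping Diff 1, and rose by 2.61 ± 0.83 (adjusted p = 0.020). Mid 3 was the highest of the Mid arrays in all 3 of these genes.

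Without Mid 3 none of them was called: Tagln differed by 0.81 (adjusted p = 0.23), Myl9 by 1.87 (adjusted p = 0.096) and Ankrd1 by 2.00 (adjusted p = 0.11), and arrays of the first scan day alone, a choice made after the values were seen, gave 1.28 (adjusted p = 0.067), 1.63 (adjusted p = 0.22) and 1.20 (adjusted p = 0.41). Leaving out Diff 2 ended the call of each as well (1.00, 2.29 and 2.52; adjusted p = 0.18, 0.066 and 0.061), and so did, for Tagln, leaving out Diff 1 (1.15, adjusted p = 0.11) or Mid 1 (1.28, adjusted p = 0.087), for Myl9, leaving out Diff 3 (2.30, adjusted p = 0.066), and for Ankrd1, leaving out Diff 3 (1.81, adjusted p = 0.15) or Mid 1 (2.48, adjusted p = 0.061). Tagln also missed the threshold with median centring (1.28, adjusted p = 0.084), with no filter (adjusted p = 0.051) and, like Ankrd1, in the arrays fitted alone (adjusted p = 0.20 and 0.12). The scan day of Mid 3 moves with these results, and its part in them was not tested beyond the values given.

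From Mid to Late, only Ankrd1 and Ccn2 passed the test, and both fell. The contractile genes, Ccn1 and the angiomotins were not called, with values between -1.21 ± 0.47 (Tagln, adjusted p = 0.12) and 0.99 ± 0.54 (Amot, adjusted p = 0.31). Of 9 members 2 were called, where 7.01% of genes tested were called, 3.28% lower and 3.73% higher, and the members' median difference was -0.98 against 0.11 over all genes tested.

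Ankrd1 read -3.80, -2.63 and -4.68 in Late, below all 3 Mid arrays and with 2 of 3 arrays well above background, and fell by 3.95 on the log2 scale (SE 0.83, n = 3 and 3; limma adjusted p = 0.0054). Ccn2 read 3.54, 5.01 and 3.31 and fell by 2.29 (SE 0.66, adjusted p = 0.036). Late 2 was the highest Late array in both genes and also in Acta2, where it read 1.72 beside -0.89 and -0.51. Tagln, by contrast, was close on all 3 Late arrays, at 0.66, 0.93 and 0.65.

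Same-numbered Mid and Late arrays deviated from their group means together (r of 0.129 to 0.218), and a fit of these groups alone with replicate number as a block called 0 genes (limma; 3489 genes at an unadjusted p under 0.05), with adjusted p = 0.15 for Ankrd1 and 0.16 for Ccn2. Without the block these 6 arrays alone gave adjusted p = 0.073 for Ankrd1 and 0.088 for Ccn2. Ccn2 was also lost without Mid 1 (-2.13, adjusted p = 0.13), Mid 3 (-2.13, adjusted p = 0.086), Late 1 (-2.08, adjusted p = 0.15) or Late 3 (-1.96, adjusted p = 0.17), with no filter (adjusted p = 0.051) and with scan day as a term (-2.18, adjusted p = 0.058), while Tagln was called lower without Mid 2 (-1.74, adjusted p = 0.037).

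XEN cells asked how far these genes go in an established extraembryonic endoderm line. They held the highest group means of Ankrd1, Ccn1, Ccn2 and Amotl2, and 8 of 9 members were higher in XEN than in ESC and 0 lower, where 51.8% of genes tested were called, 29.2% higher and 22.6% lower. The members' median difference was 6.52, against -0.02 over all genes tested. Acta2 was the exception, at 0.91 ± 0.70 (SE, n = 3 and 3; limma adjusted p = 0.29); it was called with median centring (1.59, adjusted p = 0.034).

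Ccn2 read 8.04, 7.70 and 7.60 in XEN, above every other array of the study, and was 6.52 ± 0.66 higher than in ESC (adjusted p = 1.5e-08). Ankrd1 read 1.83, 3.01 and 2.82 and was 8.44 ± 0.83 higher (adjusted p = 9.5e-09), with 1 of 3 ESC arrays well above background. Cnn1 read 2.09, 2.90 and 1.80 and was at least 152-fold higher. Myl9 varied more, at 3.16, 4.21 and 5.56, and was 7.98 ± 0.77 higher (adjusted p = 7.6e-09), with 2 of 3 ESC arrays well above background. Ccn1 reached 4.89, 5.46 and 4.64 and Amotl2 3.71, 3.99 and 4.42, and both groups were clear of ESC.

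The passaged nEnd cultures, taken as the mean of Mid and Late, were lower than XEN in 7 members and higher in Acta2 and Amot, so that 9 of 9 were called, where 40.8% of genes tested were called, 23.5% lower and 17.3% higher. Line and culture medium differ between the sides and cannot be told apart, and the XEN arrays are shared with the comparison before. Ankrd1 differed by -4.29 (SE 0.72, n = 6 and 3, limma adjusted p = 4.1e-05), with 5 of 6 nEnd arrays well above background. Myl9 differed by -4.22 (adjusted p = 2.1e-05), Ccn2 by -2.68 (adjusted p = 0.00056) and Cnn1 by -2.60 (adjusted p = 0.00098). Tagln differed by -1.66 (adjusted p = 0.002) and Ccn1 by -1.39 (adjusted p = 0.0089). The nEnd mean joins unlike groups. Ankrd1 lay at 0.24 in Mid, -3.70 in Late and 2.55 in XEN, and Ccn2 at 6.24, 3.96 and 7.78. Ankrd1, Myl9, Ccn2 and Cnn1 had no nEnd array within the XEN range, and the arrays did not overlap for 6 members in all, as for 30.8% of genes tested.

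Amot was 1.52 ± 0.47 higher in nEnd (adjusted p = 0.012), with XEN at 3.54, 4.04 and 3.41. Acta2 was 1.85 ± 0.60 higher (adjusted p = 0.017), with XEN at -1.39, -0.45 and -2.40 against -0.89, -0.51, -0.01, 0.09, 1.72 and 2.19 in nEnd, so that only Late 1 and Late 3 lay within the XEN range. Leaving out XEN 3 ended the calls of Acta2 (1.35, adjusted p = 0.13), Amot (1.39, adjusted p = 0.052) and Amotl2 (-0.53, adjusted p = 0.16), and leaving out XEN 2 that of Ccn1 (-1.15, adjusted p = 0.058). The first scan day alone ended those of Acta2 (1.00, adjusted p = 0.28), Amot (1.43, adjusted p = 0.069) and Amotl2 (-0.52, adjusted p = 0.21). Amotl2, at -0.72 ± 0.25 (adjusted p = 0.023), was also lost without Late 1 (-0.61, adjusted p = 0.059), with quantile normalization (-0.46, adjusted p = 0.18) and in the series matrix (-0.45, adjusted p = 0.18), and, like Acta2, in the groups fitted alone (adjusted p = 0.065 and 0.080).

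**Figure D2:**
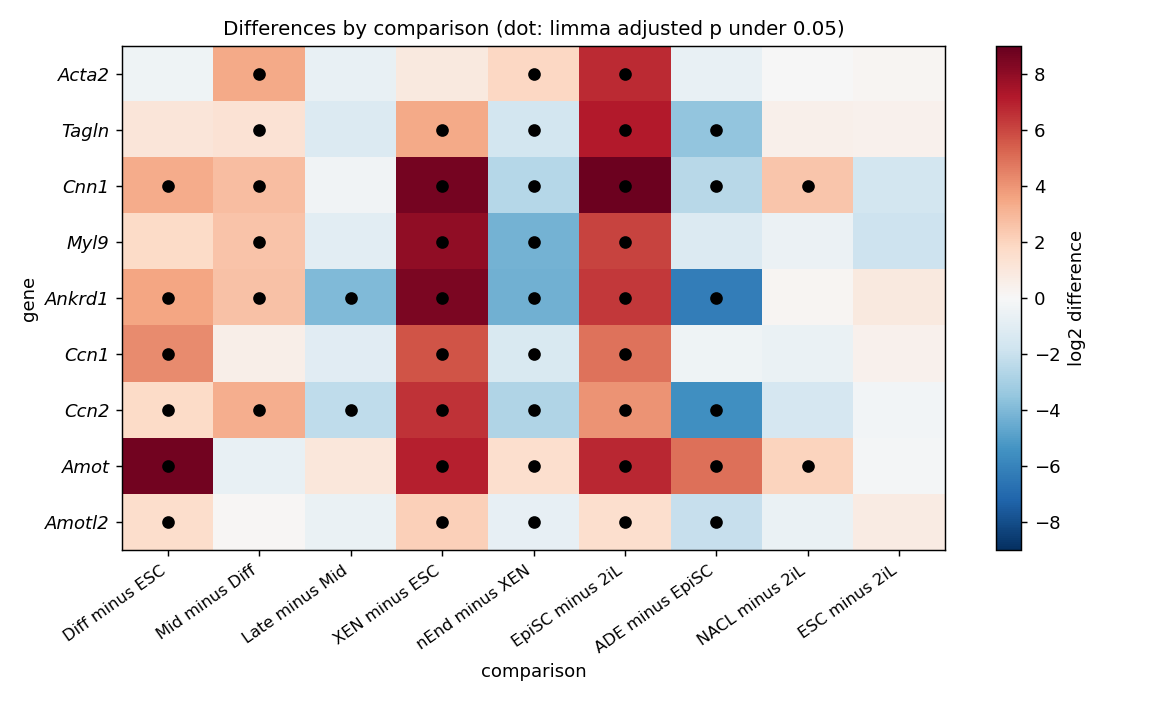
Log2 difference (colour, red higher and blue lower in the first group) of each of the 9 genes (rows) in 9 comparisons (columns); a dot marks limma's adjusted p under 0.05. The EpiSC minus 2iL column has a dot for 9 of 9 genes, all red, and ESC minus 2iL for 0 of 9. Cnn1 in Diff minus ESC and XEN minus ESC, and Ankrd1 in EpiSC minus 2iL and ADE minus EpiSC, have a side that no array measured above background, so their colour is the fitted value.

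The second set asked the same of the epiblast route. EpiSC held the highest group means of Acta2, Tagln and Cnn1, and every member was higher there than in 2iL stem cells, 9 of 9, where 42.1% of genes tested were called, 21.1% higher and 20.9% lower. The members' median difference was 6.38 against -0.04 over all genes tested, and for all 9 the arrays did not overlap, as for 52.3% of genes tested. The lines differ between the sides (HRHNG against HVMC, E14 and E14-NanogGFP) and cannot be told apart from the state of the cells.

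Tagln read 6.10, 6.09 and 6.81 in EpiSC against -0.90, -0.72 and -0.75 in 2iL, a difference of 7.12 ± 0.47 (SE, n = 3 and 3; limma adjusted p = 4.7e-11). The highest value outside EpiSC was 3.76, in XEN 2. Acta2 read 4.44, 4.61 and 3.56 against -2.85, -2.51 and -2.09, a difference of 6.69 ± 0.70 (adjusted p = 6e-08). Cnn1 read 3.84, 3.71 and 4.77 and was 8.79 ± 0.68 higher (adjusted p = 5.3e-10), with 1 of 3 2iL arrays well above background. Myl9 was even in EpiSC, at 4.18, 4.31 and 4.44, and uneven in 2iL, at -3.57, 0.41 and -2.21, where the E14 array stood out, and was 6.10 ± 0.77 higher (adjusted p = 9.5e-07).

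Among the YAP targets, Ccn1 was 4.88 ± 0.47 higher (adjusted p = 2e-08) and Ccn2 4.02 ± 0.66 (adjusted p = 2.8e-05). Ankrd1, not well above background on any 2iL array, was at least 27.2-fold higher (adjusted p = 1.4e-06) and read -1.53, -1.27 and 1.68. EpiSC 3 was the highest EpiSC array in Ankrd1, in Ccn1 (5.10 beside 3.32 and 3.25), in Ccn2 (6.27 beside 5.15 and 5.23) and in Amotl2 (3.33 beside 2.25 and 2.27). Amot was 6.81 ± 0.54 higher (adjusted p = 8.9e-10) and Amotl2 1.48 ± 0.29 (adjusted p = 0.00021).

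Fibroblast markers moved with these results. The summed level of 9 markers of fibroblasts or feeder cells, as a multiple of the 75th percentile signal, was 15.9 to 23.7 on the EpiSC arrays, where 8 to 9 of the 9 were well above background, and 1.58 to 2.55 on the 2iL arrays, where 3 to 5 were and Dcn, Postn and Twist2 were on none. In EpiSC, Col1a1 lay at 2.10 and Col3a1 at 1.30 (log2, both on 3 of 3 arrays well above background), against -3.25 and -4.47 in 2iL. The sum was 3.39 to 15.8 in ADE, where it was mostly Col1a2 (2.66, against 3.45 in EpiSC) and Col1a1 and Col3a1 lay at -3.26 and -1.66. In NACL it was 2.72 to 16.4, nearly all from Thy1 (2.58), with Col1a1 at -3.54 and Col3a1 at -3.44, and it was at most 1.27 in ESC, Diff, Mid, Late and XEN. Fibroblasts also express the contractile genes, and their part in the EpiSC values was not tested. Of the 6 smooth muscle markers, 3 to 5 were well above background per EpiSC array. Their sum was 0.917 to 1.1, against 0.243 to 0.422 in 2iL. Actg2 lay at -2.01 against -6.49, Des at -1.02 against -2.85, Synpo2 at -3.48 against -4.18 and Myocd at -4.97 against -5.58. Lmod1, well above background on no EpiSC array, and Myh11 (-5.48 against -5.25) were not higher. The part of smooth muscle cells in the EpiSC values was not tested.

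Differentiation of EpiSC to ADE lowered most members and raised Amot. Tagln, Cnn1, Ankrd1, Ccn2 and Amotl2 fell and Amot rose, 6 of 9 called, where 37.9% of genes tested were called, 21.2% lower and 16.7% higher. The median difference was -2.09 against -0.06 over all genes tested. Acta2 (-0.66 ± 0.65, adjusted p = 0.48), Myl9 (-1.26 ± 0.72, adjusted p = 0.19) and Ccn1 (-0.36 ± 0.44, adjusted p = 0.58) were not called, so Ccn1 and Ccn2, close relatives, did not share a call here; Myl9 was called with normexp (-1.32, adjusted p = 0.044).

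Amot read 8.60, 8.96, 8.61 and 8.48 in ADE, the highest 4 values of the study, against 3.30, 3.47 and 4.25 in EpiSC, and rose by 4.99 ± 0.51 (SE, n = 4 and 3; limma adjusted p = 5.9e-08). Amotl2, the other angiomotin, went the opposite way, from 2.25, 2.27 and 3.33 to 0.21, 0.09, 1.00 and 0.79, and fell by 2.09 (SE 0.27, adjusted p = 1.7e-06). Ccn2 read -0.64, 0.17, -0.77 and 1.30 and fell by 5.54 (SE 0.61, adjusted p = 2.3e-07). Ankrd1 was well above background on none of the ADE arrays and was at least 22.5-fold lower (adjusted p = 1e-06).

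Tagln read 2.71, 2.27, 2.48 and 3.67 and fell by 3.55 (SE 0.44, adjusted p = 9.5e-07), and Cnn1 fell by 2.47 (SE 0.63, adjusted p = 0.0033) to 1.11, 1.03, 1.61 and 2.81. Acta2 stayed high on 3 of 4 arrays, at 3.57, 4.71 and 4.18, and read 1.70 on ADE 2, which was also the lowest ADE array of Myl9 (1.63 beside 3.37, 3.61 and 3.62). The summed level of 6 smooth muscle markers was 8.51 to 13.4 in ADE against 0.917 to 1.1 in EpiSC, with 1 to 5 of the 6 well above background per array. This sum is nearly all Myocd, the muscle cofactor of SRF, at 3.46 ± 0.27 (log2, SD, n = 4) against -4.97. Of the other markers of the list, Actg2 (-5.46 against -2.01), Des (-5.0 against -1.02) and Synpo2 (-3.98 against -3.48) were lower in ADE. Myh11 (-4.63 against -5.48) and Lmod1 (-6.08 against -6.51) were higher, with 2 of 4 and 1 of 4 ADE arrays well above background. Trophoblast markers were higher, at a sum of 11.5 to 19.3 in ADE, with 4 of 4 well above background on every array, against 1.35 to 1.89 in EpiSC. Gata3 lay at 3.27 against -1.47, Krt7 at 1.34 against -1.74 and Elf5 at 0.01 against -6.28. The fourth, Cdx2, lay at -3.10 against -0.28. The part of either cell type in the ADE values was not tested.

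In stable culture, NACL stem cells differed from 2iL stem cells in Cnn1 and Amot, both higher, 2 of 9 members, where 8.54% of genes tested were called, 4.33% higher and 4.21% lower. Cnn1 read -2.08, -1.44, -2.25 and -2.91 in NACL against -4.95, -4.56 and -4.54, a difference of 2.51 ± 0.63 (SE, n = 4 and 3; limma adjusted p = 0.013) with no overlap and 1 of 3 2iL arrays well above background. Amot read -2.15, -1.2, -1.10 and 0.01 against -2.81, -1.75 and -4.83, which overlap, and differed by 2.02 ± 0.51 (adjusted p = 0.013). Ankrd1 was well above background on none of the 7 arrays. The members' median difference was -0.06 against 0.06 over all genes tested.

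With cell line as a block neither was called (2.45, adjusted p = 0.051 for Cnn1, and 2.10, adjusted p = 0.31 for Amot). Cnn1 was lost without 2iL 1 (2.38, adjusted p = 0.064) or NACL 2 (2.26, adjusted p = 0.050, just over the threshold), with normexp (0.79, adjusted p = 0.33) and in the series matrix (1.00, adjusted p = 0.26), and Amot without 2iL 3 (1.17, adjusted p = 0.13) and in the groups fitted alone (adjusted p = 0.25).

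Whether the same genes change alike in the other routes was tested as a difference of differences, which keeps the sign. The change from ESC to Diff was more positive than that from EpiSC to ADE in 8 members, all but Acta2 (0.30 ± 0.95, limma adjusted p = 0.83). Of genes tested 36.6% were called, 21% in that direction and 15.7% in the other. For Ccn2 it was more positive by 7.22 ± 0.90 (adjusted p = 1.4e-06), for Tagln by 4.61 ± 0.64 (adjusted p = 5.7e-06), for Amotl2 by 3.66 ± 0.39 (adjusted p = 1.9e-07) and for Amot, which rose in both steps, by 3.70 ± 0.74 (adjusted p = 0.00039). By fitted values Ccn2 changed by 1.69 towards Diff and by -5.54 towards ADE, and so moved farther towards ADE, as did Tagln, Ankrd1 and Amotl2. By the same fitted values Cnn1, Myl9, Ccn1 and Amot moved farther towards Diff. For Cnn1, not measured above background in ESC, this order is not settled. Its rise towards Diff was at least 4.02-fold and its fall towards ADE 5.53-fold. For Myl9 neither change was called. Myl9, at 2.97 ± 1.06 (adjusted p = 0.031), was not called without ESC 2 (2.70, adjusted p = 0.073), Diff 1 (2.48, adjusted p = 0.090), EpiSC 2 (2.97, adjusted p = 0.050), EpiSC 3 (2.90, adjusted p = 0.056) or ADE 2 (2.49, adjusted p = 0.067). The starting levels differ between the routes, since EpiSC were already high in these genes.

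Against the change from 2iL to NACL, which uses the same named factors over at least 3 passages, the rise from ESC to Diff was larger in all 3 YAP targets and both angiomotins, 5 of 9 members, where 31% of genes tested were called, 16.2% in that direction and 14.8% in the other. Cell lines, array set and length of culture differ between these changes, and N2B27 is stated for NACL only. These cannot be told apart. The excess was 6.67 ± 0.74 for Amot (limma adjusted p = 5.2e-07), 4.85 ± 0.65 for Ccn1 (adjusted p = 5.9e-06), 3.17 ± 0.90 for Ccn2 (adjusted p = 0.0093) and 2.19 ± 0.39 for Amotl2 (adjusted p = 0.00018). For the contractile genes it ran from -0.30 ± 0.95 (Acta2, adjusted p = 0.85) to 2.26 ± 1.06 (Myl9, adjusted p = 0.11). That of Ankrd1, 3.32 ± 1.13 (adjusted p = 0.029), has no measured level on the NACL and 2iL side, and its call was lost without ESC 1 (adjusted p = 0.057), ESC 2 (adjusted p = 0.073), Diff 1 (adjusted p = 0.11) or 2iL 3 (adjusted p = 0.053), with normexp (0.58, adjusted p = 0.56) and in the series matrix (1.42, adjusted p = 0.17); Myl9 was called without 2iL 1 (3.15, adjusted p = 0.022).

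**Figure D3:**
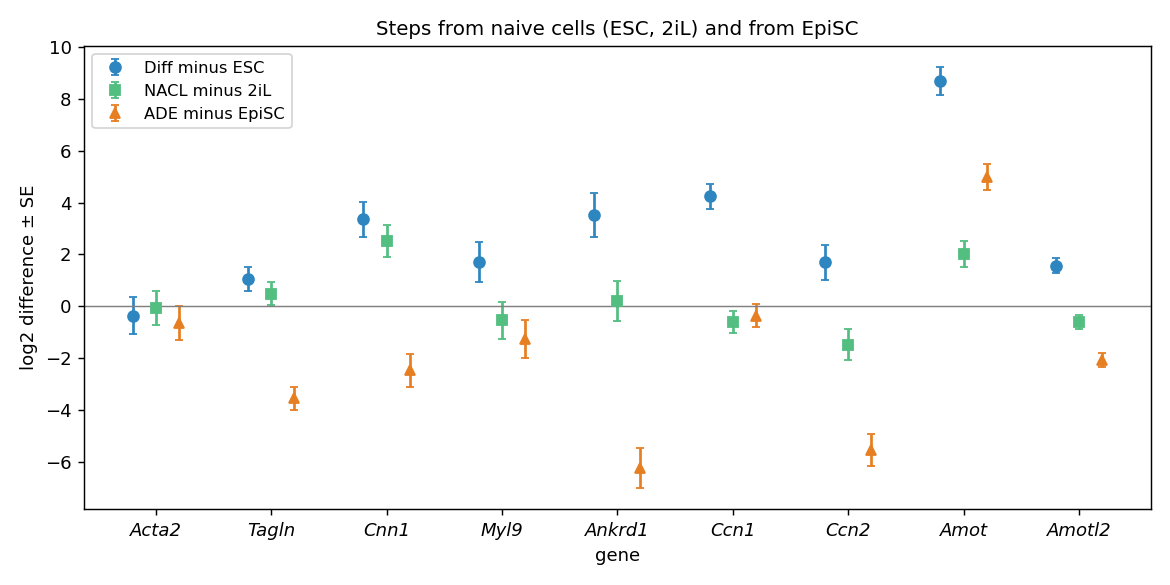
Log2 difference with its standard error (vertical axis) of each of the 9 genes in Diff minus ESC, NACL minus 2iL and ADE minus EpiSC. Amot is above 0 in all 3 steps (8.69, 2.02 and 4.99), while Ccn2 is at 1.69 in the first, at -1.48 in the second and at -5.54 in the third.

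The naive cultures of both array sets, ESC and 2iL, differed in 0 of 9 members by limma's adjusted p and in 3 at an unadjusted p under 0.05, where 10.1% of genes tested were called, 2.64% higher and 7.42% lower in ESC. The lowest adjusted p was 0.087 (Amotl2, 0.77 ± 0.29). Line and array set differ together here and cannot be told apart. Cnn1 was called lower in ESC on the first scan day alone (-2.03, adjusted p = 0.043) and Myl9 without 2iL 1 (-2.77, adjusted p = 0.031).

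Other genes of the same machinery were taken from lists drawn up with earlier results of these data in view. Of 38 contractile and SRF target genes beside the members, 37 were on the array and 35 were tested. From ESC to Diff 15 rose and 4 fell (median 0.47, all genes -0.09), from Diff to Mid 4 rose and 2 fell (median 0.00, all genes -0.03), and from Mid to Late 1 rose and 3 fell (median -0.16, all genes 0.11). That is 42.9% higher and 11.4% lower in the first step, against 22.5% and 20.8% of all genes tested. From Diff to Mid it is 11.4% and 5.71%, against 12.9% and 16%, so the share that rose was no larger than over all genes. From Mid to Late it is 2.86% and 8.57%, against 3.73% and 3.28%. Their largest rises towards Diff were Filip1l, a filamin-interacting protein, at least 93.4-fold, and Egr1, an immediate early gene, by 6.59 ± 0.75 (1 of 3 ESC arrays well above background), while Cald1, the actin regulator caldesmon, fell by 3.37 and Tpm1, a tropomyosin, fell by 2.28. From Diff to Mid the leading rises were those of Acta1, skeletal actin, by 3.77 ± 0.86 (2 of 3 Diff arrays well above background) and Fhl2, a LIM-domain cofactor, by 3.51 ± 0.67, and Des, desmin, fell by 1.52 (1 of 3 Mid arrays well above background).

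In EpiSC 22 of these 35 genes were higher than in 2iL and 0 lower (median 1.39, all genes -0.04), 62.9% against 21.1% of all genes tested, with Egr1 by 6.25 ± 0.75 (1 of 3 2iL arrays well above background) and Acta1 by 5.21 ± 0.86 (2 of 3) in front. Towards ADE 11 fell and 6 rose (median -0.28, all genes -0.06), 31.4% and 17.1% against 21.2% and 16.7%. Des fell by 3.99 (2 of 4 ADE arrays well above background) and Actg2, enteric smooth muscle actin, fell by 3.45 (2 of 4), while Fhl2 rose by 3.16 ± 0.62 and Pdlim5, a Z-disc adaptor, by 1.79 ± 0.26. XEN exceeded ESC in 19 and fell short in 1, and nEnd fell short of XEN in 15 and exceeded it in 2 (medians 0.86 and -0.68, all genes -0.02 and 0.00). The former is 54.3% higher against 29.2% of all genes tested, the latter 42.9% lower against 23.5%. Tagln2, a close relative of Tagln, differed by -2.95 in nEnd minus XEN and Cald1 by -2.65. In NACL 4 were higher and 2 lower than in 2iL (11.4% and 5.71%, against 4.33% and 4.21%), led by Egr1 (4.16 ± 0.70, 1 of 3 2iL arrays well above background) and Zyx, the focal adhesion protein zyxin (1.80 ± 0.37).

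Of 18 further YAP target genes, all tested, 10 rose and 1 fell from ESC to Diff (median 1.67, all genes -0.09), 55.6% and 5.56% against 22.5% and 20.8% of all genes tested. Foxf2, a forkhead factor, was at least 84.7-fold higher, and Nt5e, an ectoenzyme that makes adenosine, rose by 5.46 ± 0.82 (1 of 3 ESC arrays well above background), while Nuak2, a kinase, fell by 0.85. From Diff to Mid they split, 5 up and 4 down (median 0.45, all genes -0.03; 27.8% and 22.2%, against 12.9% and 16%), with Ccdc80, a matrix protein, at least 27.2-fold higher and F3, tissue factor, up by 2.41 ± 0.48, against Nt5e, which fell by 2.67, and Foxf2, which fell by 1.73. From Mid to Late 0 rose and 2 fell (11.1%, against 3.28% lower over all genes tested), Ccdc80 (-1.85 ± 0.52) and Lats2, a Hippo kinase that is also a YAP target (-1.47 ± 0.42).

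XEN exceeded ESC in 12 of the 18 and fell short in 1 (median 2.32, all genes -0.02), 66.7% higher against 29.2% of all genes tested, with Ccdc80 at least 135-fold and Foxf2 at least 57.4-fold higher. In nEnd 8 were lower than in XEN and 2 higher (44.4% and 11.1%, against 23.5% and 17.3%). The lowest was Tgfb2, a TGF-beta ligand, at -3.04. EpiSC exceeded 2iL in 14 and fell short in 1 (median 2.31, all genes -0.04), 77.8% higher against 21.1%, led by Igfbp3, an IGF-binding protein (6.57 ± 0.81, 2 of 3 2iL arrays well above background), and the 1 lower gene was Myof, myoferlin, at least 2.39-fold. Towards ADE 4 rose and 5 fell, 22.2% and 27.8%, which is near the 16.7% and 21.2% of all genes tested. Gadd45a, a stress-induced gene, fell by 3.34 and Igfbp3 fell by 2.65, while Foxf2 rose by 2.42 ± 0.48 (2 of 3 EpiSC arrays well above background) and Tgfb2 by 1.78 ± 0.64. In NACL 3 were higher than in 2iL and 0 lower (16.7% higher, against 4.33%), led by Nt5e at 2.57 ± 0.77 and Fjx1, a regulator of planar polarity, at 2.03 ± 0.43.

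Components of the Hippo pathway with the TEAD factors and their cofactors made a list of 23 genes, of which 21 were tested. Among these, 9 rose and 4 fell from ESC to Diff (median 0.34, all genes -0.09), 7 rose and 0 fell from Diff to Mid (median 0.11, all genes -0.03), and 0 rose and 3 fell from Mid to Late (median -0.18, all genes 0.11). Beside the shares of all genes tested, 42.9% rose against 22.5% in the first step, 33.3% rose against 12.9% in the second, and 14.3% fell against 3.28% in the third. Limd1, a LIM protein that restrains LATS kinases, rose by 1.84 ± 0.19 towards Diff and its relative Ajuba by 1.17 ± 0.27, while Nf2, the upstream activator merlin, fell by 1.16. The third angiomotin, Amotl1, fell by 1.63 from Mid to Late, and Fat1, an atypical cadherin, fell by 1.25. In nEnd 6 were lower and 2 higher than in XEN (28.6% and 9.52%, against 23.5% and 17.3%), with Ajuba at -1.97 ± 0.23 and Wwc1, the scaffold KIBRA, at 1.74 ± 0.29. EpiSC exceeded 2iL in 9 and fell short in 2 (42.9% and 9.52%, against 21.1% and 20.9%). Towards ADE 4 rose and 5 fell (19% and 23.8%, near the 16.7% and 21.2% of all genes), with Mob1b, a LATS coactivator, up by 2.49 ± 0.25.

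The message of YAP itself was nearly even. Yap1 group means ran from 4.67 ± 0.28 (2iL, SD, n = 3) to 5.45 ± 0.15 (Late, n = 3), and it was called in Diff minus ESC (0.41 ± 0.15 SE, limma adjusted p = 0.033) and EpiSC minus 2iL (0.49 ± 0.15, adjusted p = 0.013). Wwtr1, which encodes TAZ, rose by 0.94 ± 0.19 towards Diff (adjusted p = 0.00026) and fell by 1.86 from EpiSC to ADE (SE 0.17, adjusted p = 2.2e-08), to its lowest group mean of -0.60 ± 0.20 (SD, n = 4). Its change towards Diff was more positive than that towards ADE by 2.79 ± 0.26 and than that towards NACL by 1.41 ± 0.26 (adjusted p = 1.9e-08 and 0.0002).

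The TEAD factors did not move as a block. Tead1 rose from Diff to Mid by 0.69 ± 0.22 (limma adjusted p = 0.023), fell by 0.93 from Mid to Late (SE 0.22, adjusted p = 0.013) and fell by 1.36 from EpiSC to ADE (adjusted p = 1.6e-05), 3 of the 7 comparisons in which Ccn2 and Ankrd1 were both called, and in their direction. In the other 4 it was not called. It differed by -0.11 ± 0.22 in Diff minus ESC (adjusted p = 0.71), 0.52 ± 0.22 in XEN minus ESC (adjusted p = 0.055), 0.34 ± 0.22 in EpiSC minus 2iL (adjusted p = 0.23) and -0.41 ± 0.19 in nEnd minus XEN (adjusted p = 0.093). Tead2 fell by 1.49 towards Diff (adjusted p = 4.4e-05) and was higher in EpiSC than in 2iL by 1.49 ± 0.25 (adjusted p = 4.6e-05). Tead4 was lower in EpiSC than in 2iL (-4.13 ± 0.48, adjusted p = 3.4e-07, with 2 of 3 EpiSC arrays well above background) and rose by 2.71 ± 0.45 towards ADE (adjusted p = 4.6e-05). Tead3 rose by 2.56 ± 0.47 from Diff to Mid (adjusted p = 0.00029), from 1 of 3 Diff arrays well above background.

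Srf rose by 1.09 ± 0.19 from ESC to Diff (limma adjusted p = 4.9e-05) and by 0.85 ± 0.19 from Diff to Mid (adjusted p = 0.0016), and fell by 0.73 from Mid to Late (adjusted p = 0.021). It was 1.87 ± 0.19 higher in EpiSC than in 2iL (adjusted p = 3.3e-08). Mrtfb rose by 1.26 ± 0.16 towards Diff and both Mrtfa (0.95 ± 0.24) and Mrtfb (0.66 ± 0.16) rose towards Mid. Both were higher in XEN than in ESC (1.06 ± 0.24 and 2.02 ± 0.16). Neither was called in EpiSC minus 2iL (-0.08 ± 0.24, adjusted p = 0.84, and -0.13 ± 0.16, adjusted p = 0.54), where all 4 contractile genes were higher. Towards ADE both rose (1.15 ± 0.22, adjusted p = 0.00022, and 0.95 ± 0.15, adjusted p = 1.6e-05), and Srf was not called (0.10 ± 0.17, adjusted p = 0.73). Myocd was well above background on every XEN and ADE array, with group means of -0.17 ± 0.39 (SD, n = 3) and 3.46 ± 0.27 (n = 4), on 2 of 3 Late and 2 of 3 EpiSC arrays and 1 of 3 2iL arrays, and on none of ESC, Diff, Mid and NACL. It rose by 8.43 ± 0.77 SE from EpiSC to ADE (adjusted p = 1.5e-08), a step in which Tagln and Cnn1 fell.

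**Figure D4:**
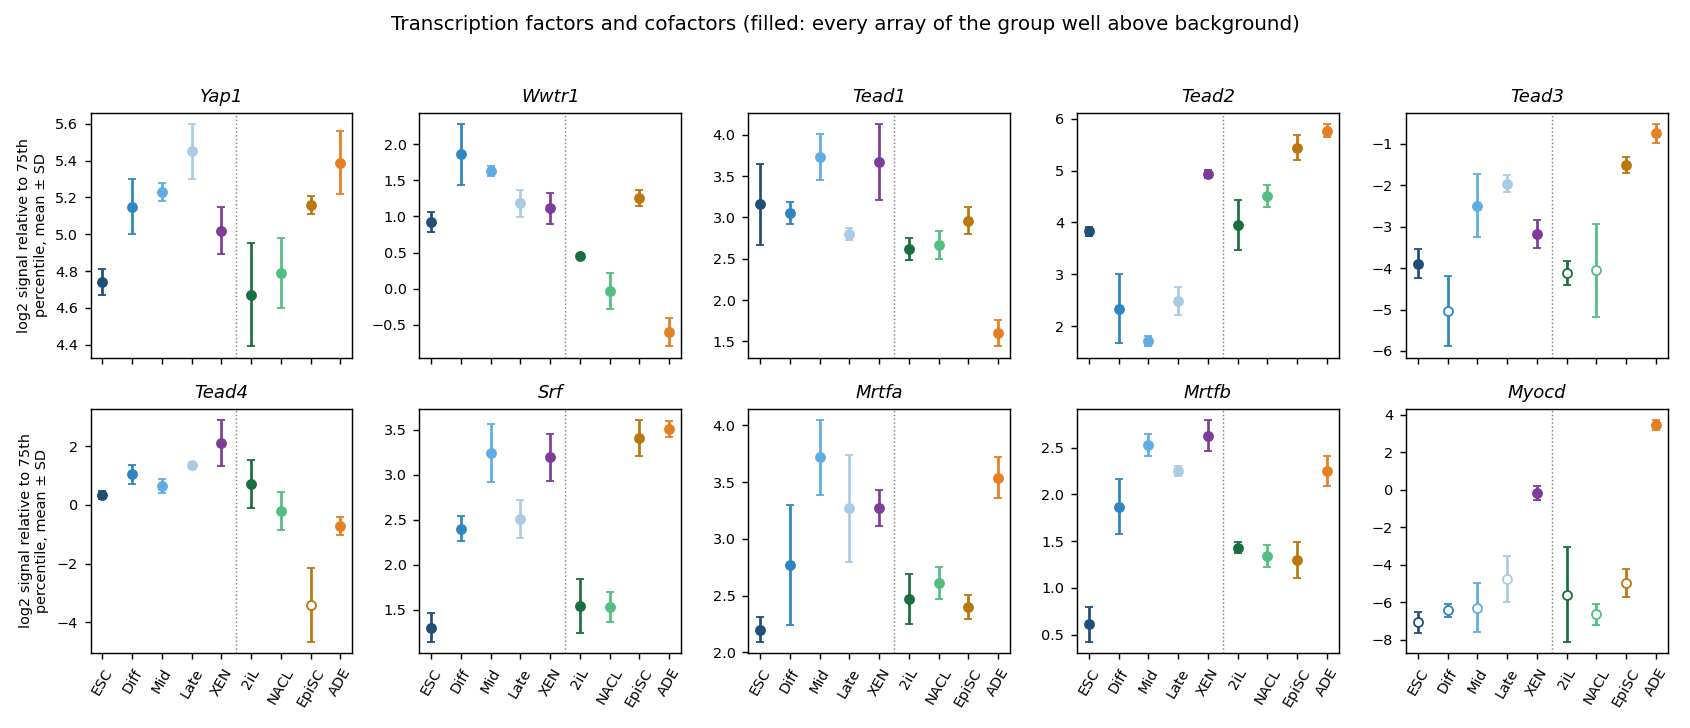
Group mean and SD (vertical axis, log2 signal relative to the 75th percentile of the array) of YAP (Yap1), TAZ (Wwtr1), 4 TEAD factors, Srf and 3 of its cofactors in 9 groups; open points mark groups in which not every array was well above background. Each panel has its own scale; Yap1 stays between 4.67 and 5.45, while Myocd is highest in ADE at 3.46.

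TGF-beta and Activin use related receptors, and 10 genes induced by TGF-beta were followed beside the members, 9 of them tested. Towards Diff 2 rose and 2 fell (median 0.02, all genes -0.09), 22.2% each way, near the 22.5% and 20.8% of all genes tested. Thbs1, thrombospondin, was at least 5.53-fold higher in Diff and rose by a further 4.39 ± 0.79 in Mid, Pmepa1, a feedback inhibitor, rose by 3.03 ± 0.31 in Diff, and Tgfbi, a matrix protein, fell by 3.14. In EpiSC 4 were higher than in 2iL and 0 lower (44.4% higher, against 21.1%), Thbs1 at least 218-fold. Towards ADE Pmepa1 rose by 2.45 ± 0.29.

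The genes whose 9 group means ran most like those of a member, among genes spanning at least 2 on the log2 scale, were Pcdhb18 for Acta2 (Pearson r = 0.981), Tgfb3 for Tagln (0.97), Pgm1 for Cnn1 (0.971), Zmynd11 for Myl9 (0.968), Dgkk for Amot (0.980) and Lpin1 for Amotl2 (0.991). Ccn2 was the closest gene of all to Ankrd1 (0.968), and Ankrd1 the second closest to Ccn2 (0.968), after Abca5 (0.981), which was itself second for Ankrd1 (0.965). With 9 points and this many genes such values describe the pattern only.

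The scaling affects the balance of directions. With median centring the median of all genes moved from -0.09 to 0.30 in Diff minus ESC, from -0.02 to 0.66 in XEN minus ESC and from 0.00 to -0.39 in nEnd minus XEN, while the higher genes' share of all calls went from 51.9% to 72.9%, from 56.3% to 78.1% and from 42.4% to 23.6%. In Late minus Mid it moved from 53.3% to 24.6%, and in ESC minus 2iL from 26.2% to 6.49%. Median centring gave 8 members called higher in place of 6 in Diff minus ESC, 9 in place of 8 in XEN minus ESC, 5 in place of 6 in Mid minus Diff, and equal counts in nEnd minus XEN, EpiSC minus 2iL and ADE minus EpiSC. Within slides that held arrays of both sides, all 82 differences of called members (8 comparisons, alternative chosen after the values were seen) had the sign of the full fit. They cover only members already called, on arrays that the full fit also used, so this match could hardly fail and adds no separate evidence.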

How the data were processed

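RNA from 29 cultures was hybridised to single-colour Agilent arrays. The deposited scanner output gives the intensity of every spot, read, per the file headers, by Feature Extraction 11.0.1.1 (first set) and 12.0.1.1 (second set), background-corrected by that software before deposit; the submitters' processing notes give version 9.1. From this deposited signal log2 values were taken. The authors' series matrix, of unstated scale, had column medians of 5.94 to 5.949 and r of 0.909 to 0.937 with the scanner signal on the log2 scale; it was read as log2, and its log base and background step stay unknown.

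Irregular spots (132 to 243 of 59305 per array) were dropped, log2 signals were set relative to the 75th percentile of all non-control spots, and spots of a probe were averaged. Accessions named 27636 of 55681 probes (20956 symbols; annotation GRCm38.p6, for names and promoter windows only, since the headers name build mm9). Of 5552 symbols with several probes the brightest on average stood for the gene. Genes were tested where some group had every array well above background (16333, all members among them). One limma model of 9 group means (limma 3.58.1, R 4.3.3) gave differences, SE and Benjamini-Hochberg adjusted p within each of 9 comparisons and 2 differences of differences. It was tested on simulated data. Python 3.11.15 was used for tables.

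The members and all lists were chosen with earlier results of these data known. Named list genes are the called ones with the largest or second largest difference in each direction per list and comparison, with YAP, TAZ, TEAD and SRF factors and the 3 genes most like each member. Some genes this rule selects are not reported here. Same-numbered Mid and Late arrays deviated together (r of 0.129 to 0.218, all 3 over 0.1); other groups gave no such pairing. Alternatives covered scaling, background, filters, probes, blocks and single arrays left out. No probe sequence was used.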

Additional observations from a re-analysis of the deposited data

Results flagged for a closer look

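In groups of 4 arrays, 3 values stood apart by Dixon's criterion (the gap to the nearest array, as a ratio to the group's range), which chance meets in about 1 group in 20. Tagln in NACL had 1 high array, NACL 3, at 0.22 beside -0.52, -0.45 and -0.43 (ratio 0.887). Myl9 in ADE had 1 low array, ADE 2, at 1.63 beside 3.37, 3.61 and 3.62 (ratio 0.872). Ccn1 in NACL had 1 high array, NACL 4 of the line E14-NanogGFP, at -0.54 beside -2.06, -2.03 and -1.80, just over the limit (ratio 0.829).

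Changes that differed between routes were tested as differences of log2 differences with limma. Signs are kept, so an excess can join a rise with a fall. From ESC to Diff against from EpiSC to ADE, the excess was 9.76 for Ankrd1, 7.22 for Ccn2, 5.82 for Cnn1, 4.61 for Tagln, 4.6 for Ccn1, 3.70 for Amot, 3.66 for Amotl2 and 2.97 for Myl9. Ankrd1 was not well above background on any ADE array, and Cnn1 on any ESC array, so the sizes given for these genes are fitted values only. From ESC to Diff against from 2iL to NACL, the excess was 6.67 for Amot, 4.85 for Ccn1, 3.32 for Ankrd1, 3.17 for Ccn2 and 2.19 for Amotl2, with Ankrd1 not well above background on any 2iL or NACL array.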

How the results depend on the processing

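Counts of members called moved by over 1.5 times in 4 comparisons. Mid minus Diff went from 6 to 3 with the groups fitted alone and on the first scan day only. Late minus Mid went from 2 to 1 with no filter, with scan day as a block and on the first scan day only, and to 0 with the groups fitted alone and with replicate block on these groups alone. NACL minus 2iL went from 2 to 1 with normexp, in the series matrix and with the groups fitted alone, and to 0 with cell line as a block. ESC minus 2iL went from 0 to 1 on the first scan day only. Leaving out single arrays gave 5 to 7 members (Diff minus ESC), 3 to 6 (Mid minus Diff), 1 to 3 (Late minus Mid), 6 to 9 (nEnd minus XEN), 8 (XEN minus ESC), 1 to 2 (NACL minus 2iL), 9 (EpiSC minus 2iL), 6 (ADE minus EpiSC), 0 to 1 (ESC minus 2iL), and 7 to 8 and 4 to 6 for the differences of differences. Replicate block on the full model, planned or on Mid and Late only, changed no member's call in the report and left the count at 6 in Diff minus ESC. All genes called in Mid minus Diff fell from 4724 to 2726 with the groups fitted alone and to 2950 with median centring, in Late minus Mid from 1145 to 265 and 391 (425 to 696 without Mid 1, Mid 2, Late 1 or Late 3), in NACL minus 2iL from 1395 to 446 and 868 (236 with cell line as a block; 827 without 2iL 1), and in ESC minus 2iL from 1643 to 534 and 956 (1037 with slide as a random block; 806 to 965 without any ESC array; 879 without 2iL 2). The cause of these shifts was not tested.

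Of 1980 values for single members, 1870 kept direction and call, 71 lost a call, 11 gained one and 28 changed sign, the last all among values not called. Changed signs were, in Diff minus ESC, Acta2 (0.04, median centring); in Mid minus Diff, Ccn1 (-0.05, first scan day); in Late minus Mid, Acta2 (0.06 on the first scan day; -1.46 to 0.06 without single arrays, the sign changing without Mid 3) and Cnn1 (0.07 with scan day, 0.51 on the first; -1.09 to 0.51 without single arrays, changing without Mid 3). In NACL minus 2iL they were Acta2 (0.08 with normexp or cell line; -0.25 to 0.14 without single arrays, changing without 2iL 3, NACL 1 or NACL 2), Myl9 (-1.44 to 0.55, changing without 2iL 2) and Ankrd1 (-0.1 quantile, -0.11 series matrix), and in ADE minus EpiSC Ccn1 (-0.68 to 0.24, changing without EpiSC 3). In ESC minus 2iL they were Acta2 (-0.07 median centring, -0.02 quantile, -0.09 slide block; -0.02 to 0.36 without single arrays, changing without 2iL 1), Ccn2 (-0.93 to 0.21, changing without ESC 1) and Amot (-1.02 to 0.52, changing without ESC 1 or 2iL 2). In the differences of differences they were Acta2 (-0.31 to 0.69, changing without ADE 2; 0.1 median centring and 0.01 quantile), Tagln (-0.04, first scan day) and Cnn1 (-0.15, normexp). Probes near background, Ankrd1 and Cnn1 in naive cells, limit what their differences can show.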
